A study of Canis lupus familiaris with 24 samples.

Results

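The genes described here belong to the interleukin-6 and STAT3 pathway or to acute phase control and were followed across regions of the dog lung: STAT3, SOCS3, CEBPB, CEBPD, IL6ST, IL6R, OSMR, IL4R and CP. They were found by symbol, taking every probe set whose only gene symbol in the platform's annotation was one of these names. This gave 18 probe sets for the 9 genes, of 22283 probe sets on the array and of 11963 genes with a probe set of their own. All 18 were called Present on at least 6 of 24 arrays and were tested with 20034 probe sets in all. Each of the 9 symbols is also a gene symbol of the dog in RefSeq (assembly UU_Cfam_GSD_1.0).

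Lung tissue came from 3 anesthetized mongrel dogs, 1 array per piece and 24 arrays in all. In each dog the left lung was lavaged with warm saline, 20 ml/kg given 4 times, which is a mild injury that removes surfactant, and the right lung was the control. Both lungs of an animal were then ventilated separately for 5 h at 25 breaths/min, with 5 cmH2O of positive end-expiratory pressure (PEEP) in the control lung only. Lavage, side and PEEP differed together between the lungs, cannot be told apart, and are meant jointly by "injured". Pieces were taken from apex and base and from the dependent (lower under gravity) and nondependent parts, so that 8 groups of lung, level and position held 3 arrays each, 1 per dog. All animals received pentobarbital and pancuronium.

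Interleukin-6 and its relatives signal through receptors that share IL6ST, the gp130 chain, and activate Janus kinases, which phosphorylate STAT3. Activated STAT3 enters the nucleus and switches on genes that include its own inhibitor SOCS3, and it acts with the transcription factors C/EBPβ (CEBPB) and C/EBPδ (CEBPD) on acute phase genes. In the lung the pathway is known for its part in the response of the epithelium to injury and infection. IL4R belongs to a neighbouring pathway, since it is the receptor chain for interleukin-4 and interleukin-13 and signals mainly through STAT6, and CP encodes ceruloplasmin, a copper-carrying plasma protein of the acute phase. Much of the pathway is controlled by phosphorylation, which an RNA measurement does not see.

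Dog RNA was measured on a human array, part A of Affymetrix's U133 set. Mismatches between human probes and dog transcripts lower a signal, and no level of 1 gene is set against that of another. A level is the log2 of the deposited signal, scaled to the same trimmed mean of about 150 on every array. The share of probe sets called Present ran from 60.78 to 82.32% per array, and 3 injured-lung arrays of dog 3 (apex dependent, apex nondependent and base dependent) stood apart, with highest signals of at least 22155 against at most 20465 on the other arrays. In whole tissue, fewer cells of a type and less RNA per cell cannot be told apart. Markers of lung cells were present: the 5 tested of 6 alveolar type 2 markers were each called Present on at least 20 arrays, and the 5 alveolar type 1 markers on at least 11. The 5 markers of hepatocytes, cells of the liver, were each called Present on at least 17 arrays. A Present call on this array therefore does not show that a transcript is particular to lung cells.

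No gene of the set passed the test in any of 11 comparisons, at a limma adjusted p under 0.05 over all 20034 probe sets. For the injured against the control lung as the mean of 4 sites, 0 of the 18 probe sets were called, where 0.21% of all tested probe sets were. At an unadjusted p under 0.05 there were 3 of 18, against 9.7% of all. At the base nondependent site, again 0 of 18 were called with 0.404% of all called, and 2 of 18 had an unadjusted p under 0.05 against 8.41% of all. In the injured lung, base against apex gave 0 of 18 with 0.0349% of all called, and 3 of 18 at an unadjusted p under 0.05 against 9.03%. The other 8 comparisons called 0% of all probe sets and 0 of 18 here, with 0 to 2 of 18 at an unadjusted p under 0.05 against 4.79 to 8.26% of all. The values that follow are therefore descriptions of size and spread, and none of them is a called difference.

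Differences were also summarised over the set. The median injured minus control difference of the 18 probe sets was 0.09 (log2, mean of 4 sites), against 0.03 for all tested probe sets, and the median size without sign was 0.22 against 0.15. Their median SD within a dog was 0.64, against 0.46 for all. For 6 of 18 probe sets the 3 dogs had the same sign, next to 29.7% of all tested probe sets. Taking the brightest probe set of each gene, 6 of 9 genes were above 0, and in 4 of 9 the 3 dogs had one sign: SOCS3, CEBPB and OSMR were higher in the injured lung of each dog, and IL4R was lower.

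**Figure D1:**
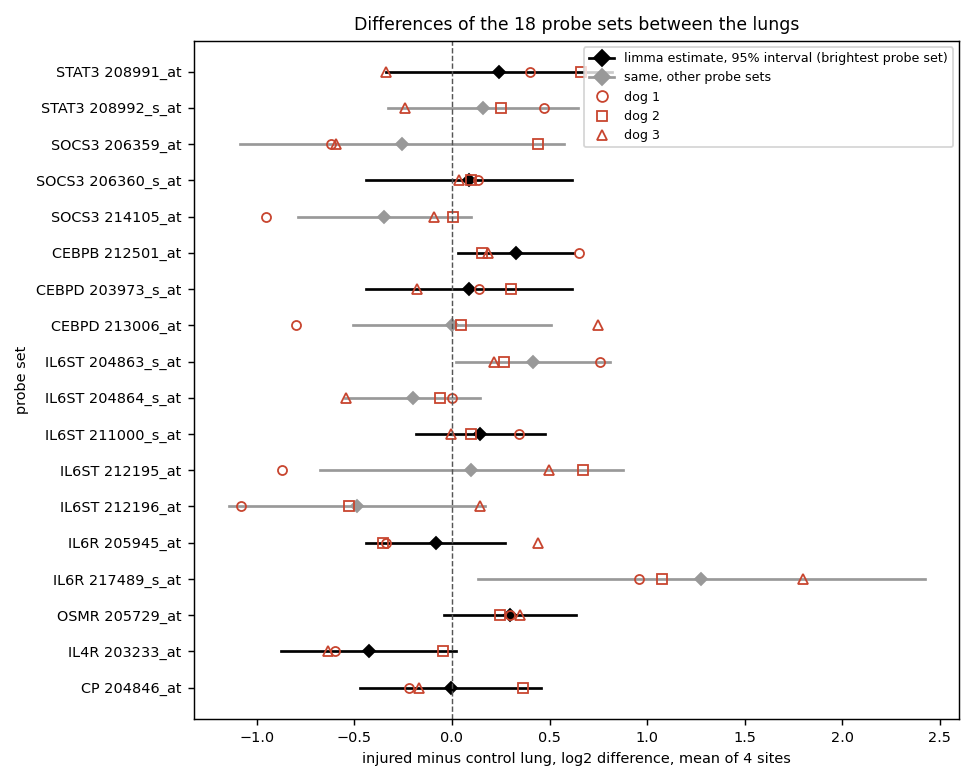
Injured minus control log2 difference of each of the 18 probe sets as the mean of 4 sites (x axis), with the limma estimate and its 95% interval (diamonds and lines; black for the brightest probe set of a gene) and the 3 dogs (open symbols). CEBPB sits at 0.33 and IL4R at -0.43, and the dogs of several probe sets lie on both sides of 0.

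STAT3 is the transcription factor at the centre of the pathway. On its brightest probe set, 208991_at, it ranged from 8.71 to 11.37 (median 10.54) on the 12 injured-lung arrays and from 8.40 to 10.95 (median 10.30) on the 12 control arrays, and it was called Present on all 24. The ranges of the lungs overlapped almost wholly. Over the 4 sites the injured lung was 0.24 ± 0.28 (log2, SE) above the control lung, with a 95% interval from -0.34 to 0.82 and a limma adjusted p of 0.837.

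The dogs disagreed on STAT3. Dogs 1 and 2 were higher in the injured lung, by 0.40 and 0.66 as means of 4 sites, and dog 3 was at -0.34. In dog 3 the apex dependent and base dependent pieces of the injured lung were 2.03 and 1.77 lower than their control pieces on the log2 scale, and the apex nondependent piece was 2.01 higher. The differences of dogs 1 and 2 at the apex dependent site were 1.35 and 0.64.

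The injured pieces of dog 3 at these 3 sites are the arrays that stood apart, and STAT3 was not low on each of them. It read 8.71 (apex dependent), 8.91 (base dependent) and 10.41 (apex nondependent), against a mean of 10.43 on the other 5 arrays of the dog. Of the other 5 only the base nondependent array, at 11.37, was of the injured lung. The difference at the apex nondependent site came from the control piece, which read 8.40, the lowest of the 24 arrays, and did not stand apart. Without the 3 arrays the mean of 4 sites was 0.61, and without dog 3 it was 0.53 (limma adjusted p = 0.289). Without dog 2 it was 0.03. STAT3 also varied with a measure of RNA integrity, the 3′ minus 5′ log2 signal of ACTB, which is higher in less intact RNA. Over the 24 arrays, after subtracting each dog's mean, Pearson's r was -0.59 for 208991_at and -0.79 for 208992_s_at. With the same measure of GAPDH, r was weaker, at -0.19 and -0.44. Arrays share animals and the array's overall quality, and the part of RNA integrity in the STAT3 values was not tested beyond a fit with GAPDH and ACTB ratios as covariates, in which the mean of 4 sites was 0.13.

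By site, STAT3 was 0.73 ± 0.55 (log2, SE) higher in the injured lung at the apex nondependent site and 0.38 ± 0.55 at the base nondependent site, against -0.01 and -0.13 at the dependent sites of apex and base. The low dependent values came from dog 3. Without that dog the apex dependent difference was 0.99, and the injury effect in dependent minus nondependent pieces turned from -0.63 to 0.62 (limma adjusted p of 0.879 and 0.887). The 3 injured and 3 control arrays overlapped at all 4 sites. The highest of the 8 group means was that of the injured base nondependent site (10.89 ± 0.58, SD, n = 3) and the lowest that of the control apex nondependent site (9.31 ± 0.79). None of the 7 gaps between neighbours in the order of group means was above the larger SD of the pair. On the other probe set, 208992_s_at, the mean of 4 sites was 0.16 ± 0.23 (log2, SE; limma adjusted p = 0.88). Its apex nondependent groups did not overlap, with a difference of 0.77 ± 0.47 and dogs 1, 2 and 3 at 1.50, 0.05 and 0.76. At the base nondependent site it was at -0.085 ± 0.47.

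SOCS3, which blocks Janus kinase signalling and is switched on by STAT3, had dogs close to each other for the mean of 4 sites. On 206360_s_at it was 0.13, 0.10 and 0.04 in dogs 1, 2 and 3. All were above 0, yet the fitted difference was 0.09 ± 0.25 (log2, SE; 95% interval -0.44 to 0.62, limma adjusted p = 0.949), and only 5 of 12 matched pieces were higher in the injured lung. The probe set was called Present on 18 of 24 arrays, and the 6 others were all of dog 1. The 2 other probe sets were below 0, with -0.26 for 206359_at (Present on 6 of 24 arrays) and -0.35 for 214105_at (Present on 14). SOCS3 and STAT3 had a dog-centred r of 0.07 over the 24 arrays on their brightest probe sets, and this depended on the probe set. Over the other pairs of their probe sets r ran from -0.045 to 0.527. The highest was between SOCS3 206360_s_at and STAT3 208992_s_at, where Spearman's rho was 0.339.

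**Figure D2:**
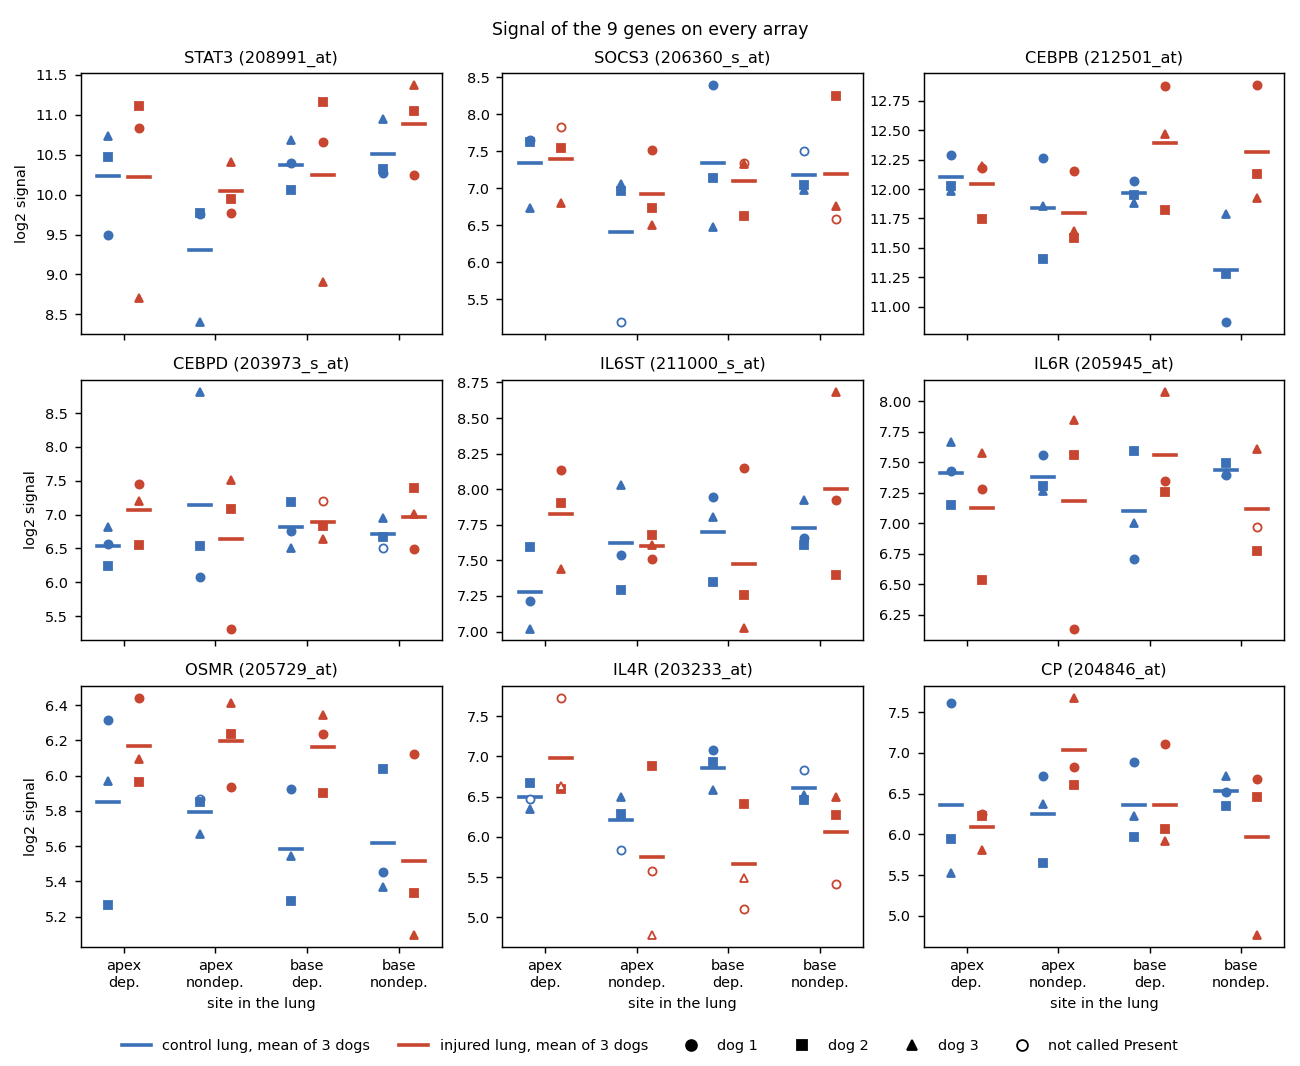
Log2 signal (y axis) of the brightest probe set of each gene on all 24 arrays by site (x axis), for the control (blue) and injured (red) lung, with a symbol per dog, open where not called Present, and bars for the mean of 3 dogs. CEBPB separates the lungs at the base nondependent site and IL4R at the base dependent site, and OSMR at the apex nondependent site.

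CEBPB, a transcription factor of acute phase and inflammatory genes, had the smallest p of the 9 genes on their brightest probe sets. Its only probe set, 212501_at, was called Present on all 24 arrays. The injured lung was 0.33 ± 0.14 (log2, SE; 12 arrays per lung from 3 dogs) above the control lung, a 1.26-fold difference. The 95% interval ran from 0.03 to 0.63, and the limma adjusted p was 0.450. Both SE and interval take the pieces as separate units, although whole lungs were lavaged. The 3 dogs stood at 0.65, 0.15 and 0.18, and 7 of 12 matched pieces were higher in the injured lung.

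The levels of CEBPB at each site follow. At the apex, the dependent pieces of dogs 1, 2 and 3 read 12.29, 12.03 and 11.98 in the control lung and 12.18, 11.74 and 12.19 in the injured lung. The apex nondependent pieces read 12.27, 11.40 and 11.86 in the control lung and 12.15, 11.58 and 11.65 in the injured lung. Lungs overlapped at both apex sites, and the fitted differences were -0.06 and -0.05, each with an SE of 0.29.

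At the base dependent site CEBPB read 12.07, 11.95 and 11.88 in the control lung and 12.88, 11.82 and 12.47 in the injured lung. Dogs 1 and 3 were higher in the injured lung and dog 2 was slightly lower, so that the groups overlapped, with a fitted difference of 0.42 ± 0.29.

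The base nondependent pieces read 10.87, 11.28 and 11.79 in the control lung and 12.88, 12.13 and 11.93 in the injured lung. Here each injured array was above each control array, and the paired differences of dogs 1, 2 and 3 were 2.01, 0.85 and 0.14. The fitted difference was 1.00 ± 0.29 (log2, SE; 95% interval 0.40 to 1.60), with a limma adjusted p of 0.180. The control base nondependent group was the lowest of the 8 (11.31 ± 0.46, SD, n = 3), and the injured base dependent group the highest (12.39 ± 0.53). Only the lowest step in the order of group means, 0.48, was above the larger SD of its pair.

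The CEBPB value leaned on dog 1. Without dog 1 the base nondependent difference was 0.49, without dog 2 it was 1.08 and without dog 3 it was 1.43 (limma adjusted p = 0.0723), and quantile normalization gave 0.50 (limma adjusted p = 0.682). CEBPB went the other way from STAT3 and was higher where the 3′ minus 5′ ratios were higher. Its dog-centred r was 0.58 with the ratio of GAPDH and 0.52 with that of ACTB. The injured minus control GAPDH ratio at this site was 1.35, 0.41 and 0.09 in dogs 1, 2 and 3. For ACTB it was 1.03, 0.48 and -0.47, so dog 3 went the other way. With both ratios as covariates the CEBPB difference was 0.82. The part of RNA integrity in the CEBPB values was not tested beyond this fit.

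The difference between lungs was larger at the base than at the apex by 0.77 ± 0.29 for CEBPB (log2, SE; 95% interval 0.17 to 1.36, limma adjusted p = 0.492). This interaction was 0.39 with the RNA integrity covariates, 0.39 without dog 1 and 0.41 after quantile normalization. Within the injured lung, CEBPB was 0.43 ± 0.20 higher at the base than at the apex (limma adjusted p = 0.535). In the control lung it was 0.33 ± 0.20 lower at the base (limma adjusted p = 0.949), and 0.46 ± 0.20 higher in dependent than in nondependent pieces (limma adjusted p = 0.990).

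**Figure D3:**
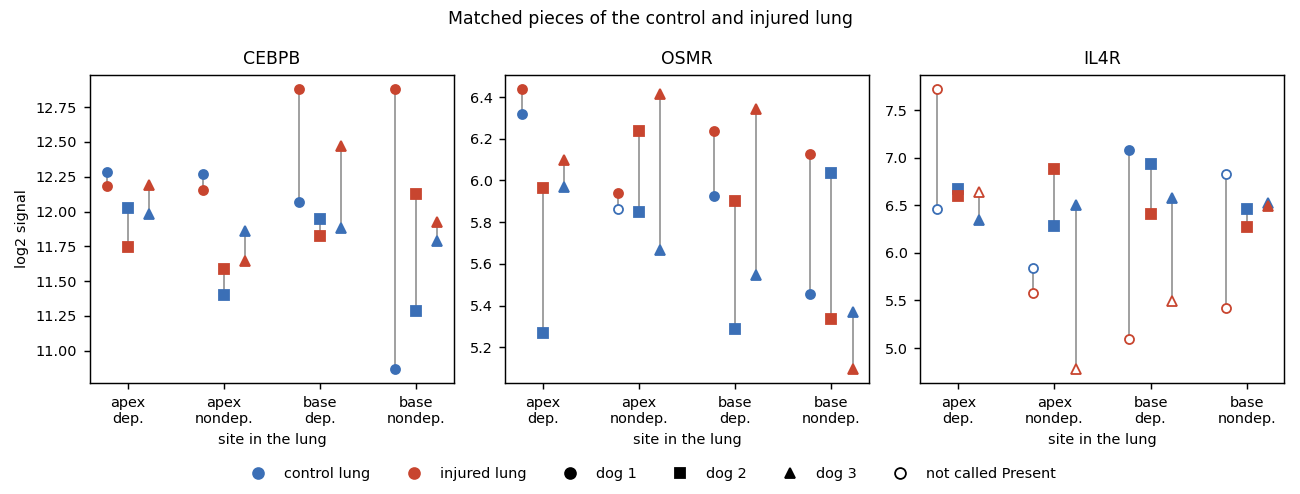
Log2 signal (y axis) of CEBPB, OSMR and IL4R in matched control (blue) and injured (red) pieces joined by a line, by site (x axis) and dog (symbols), open where not called Present. The longest CEBPB line is that of dog 1 at the base nondependent site, from 10.87 to 12.88.

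CEBPD, the second C/EBP factor of the acute phase, had no such pattern. Its brightest probe set, 203973_s_at, ranged from 5.32 to 7.52 in the injured and from 6.08 to 8.82 in the control lung, with 1 control apex nondependent array of dog 3 at 8.82. The fitted difference was 0.09 ± 0.25 (log2, SE; 95% interval -0.44 to 0.61, limma adjusted p = 0.949), and 8 of 12 matched pieces were higher in the injured lung. The other probe set, 213006_at, had a mean difference of -0.00, and the dog-centred r between the probe sets was -0.33 over 24 arrays. On 213006_at the base of the injured lung was 0.88 ± 0.34 (log2, SE) below its apex (limma adjusted p = 0.430).

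Among the receptors, IL6ST, the signal-transducing chain shared by the family, was called Present on all 24 arrays on 211000_s_at. It ranged from 7.02 to 8.69 in the injured and from 7.02 to 8.03 in the control lung. The injured lung was 0.15 ± 0.16 (log2, SE; 95% interval -0.18 to 0.48, limma adjusted p = 0.827) above the control lung. Across sites the largest difference on this probe set was 0.55 ± 0.32 at the apex dependent site, where the 3 dogs had 0.92, 0.31 and 0.42. IL6ST and STAT3 had the highest dog-centred r between any pair of the 9 genes on their brightest probe sets, 0.43. IL6ST averaged 7.36 on the 3 arrays of dog 3 that stood apart and 7.89 on that dog's other 5, of which the control apex dependent array (7.02) was as low as the lowest of the 3. The 3 are all of the injured lung, and of the 5 only the base nondependent array (8.69) is. Like STAT3, IL6ST ran against the ACTB ratio (r = -0.57) and less against that of GAPDH (r = -0.14).

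The 5 probe sets of IL6ST did not move together. Their means of 4 sites ran from -0.49 (212196_at) to 0.41 (204863_s_at), and their dog-centred r values with each other ran from -0.24 to 0.59. On 204863_s_at the injured lung was 0.41 ± 0.19 (log2, SE) higher, with 10 of 12 matched pieces above 0 and the 3 dogs at 0.76, 0.27 and 0.21 (limma adjusted p = 0.482).

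On 212196_at, at the base nondependent site, the control pieces read 6.55, 5.88 and 5.04 and the injured pieces 2.72, 5.05 and 3.95 in dogs 1, 2 and 3. There it was Present on 3 of 3 control pieces and 0 of 3 injured pieces, so that the injured level is not well measured and no fold is given. The means were 5.83 in the control and 3.91 in the injured lung, a log2 difference of -1.92 ± 0.63 (SE; limma adjusted p = 0.284), and -0.96 without dog 1. The dog-centred r of this probe set was -0.61 with the GAPDH ratio and -0.32 with the ACTB ratio. The part of RNA integrity in the value was not tested beyond the fit with both ratios as covariates, in which the difference was -1.35. The groups overlapped only through the injured piece of dog 2 (5.05), which lay just above the lowest control piece (5.04).

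IL6R, the interleukin-6 binding chain, read between 6.14 and 8.08 in the injured and between 6.71 and 7.67 in the control lung on 205945_at. The difference was -0.08 ± 0.17 (log2, SE; 95% interval -0.44 to 0.27, limma adjusted p = 0.919). Dogs 1 and 2 were lower in the injured lung (-0.34 and -0.35) and dog 3 was higher (0.44), and the value turned to 0.04 without dog 1 and to 0.05 without dog 2. The dim probe set 217489_s_at, Present on 9 of 24 arrays, stood at 1.28 ± 0.55, with the smallest adjusted p of the 18 for this comparison (0.444 by limma), and was higher in the 3 dogs by 0.96, 1.08 and 1.80. Only 7 of its 12 matched pieces were higher in the injured lung, and with an offset of 16 before the log the difference was 0.48. Its levels ran from 1.20 to 5.95 over the 24 arrays, and its dog-centred r with 205945_at was 0.19.

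OSMR, the receptor chain for oncostatin M and interleukin-31, had the highest count of matched pieces above 0 among the brightest probe sets of the 9 genes. It was higher in the injured lung in 10 of 12 pairs, a count that 3.27% of all tested probe sets reached or passed. At the apex the control pieces of dogs 1, 2 and 3 read 6.32, 5.27 and 5.97 (dependent) and 5.87, 5.85 and 5.67 (nondependent). The injured apex pieces read 6.44, 5.97 and 6.10 (dependent) and 5.94, 6.24 and 6.41 (nondependent). Each injured piece was above its control piece at the apex, and the nondependent groups did not overlap.

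At the base the control pieces of OSMR read 5.92, 5.29 and 5.55 (dependent) and 5.46, 6.04 and 5.37 (nondependent). The injured pieces read 6.24, 5.90 and 6.34 (dependent) and 6.13, 5.33 and 5.10 (nondependent). The dependent pieces were again higher in each injured lung, though the groups overlapped, and the nondependent pieces were higher in dog 1 only.

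Over the 4 sites OSMR was 0.30 ± 0.16 (log2, SE; 95% interval -0.04 to 0.64) above the control lung, 1.23-fold, with a limma adjusted p of 0.590. The dogs stood at 0.30, 0.25 and 0.35. At single sites the differences were 0.32, 0.40, 0.57 and -0.10 (apex dependent, apex nondependent, base dependent and base nondependent), each with an SE of 0.33. OSMR averaged 6.28 on the 3 arrays of dog 3 that stood apart and 5.53 on that dog's other 5. The 3 are all of the injured lung, and of the 5 only the base nondependent array (5.10) is, so the means also hold the difference between lungs.

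IL4R was the one gene of the 9 that was lower in the injured lung in each dog, by 0.60, 0.05 and 0.64 on the log2 scale. Its control apex pieces read 6.47, 6.67 and 6.35 (dependent) and 5.84, 6.28 and 6.50 (nondependent) in dogs 1, 2 and 3. The injured apex pieces read 7.73, 6.60 and 6.64 (dependent) and 5.58, 6.88 and 4.78 (nondependent). Lungs overlapped at both apex sites, with dog 1 high in the dependent piece and dog 3 low in the nondependent piece of the injured lung.

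At the base, the control pieces of IL4R read 7.08, 6.93 and 6.58 (dependent) and 6.83, 6.46 and 6.53 (nondependent). The injured pieces read 5.10, 6.40 and 5.49 (dependent) and 5.42, 6.27 and 6.50 (nondependent). Each injured base piece was below its control piece, and at the dependent site the groups did not overlap. There the difference was -1.20 ± 0.43 (log2, SE; 95% interval -2.09 to -0.30, limma adjusted p = 0.701), with 3 of 3 control but 1 of 3 injured arrays called Present.

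For the mean of 4 sites IL4R was at -0.43 ± 0.21 (log2, SE; 95% interval -0.88 to 0.02, limma adjusted p = 0.547), and 3 of 12 matched pieces were higher in the injured lung, a count that 8.51% of all tested probe sets had or fell under. Calls of Present numbered 5 on the 12 injured arrays and 9 on the 12 control arrays. IL4R averaged 5.64 on the 3 arrays of dog 3 that stood apart, all of the injured lung, and 6.49 on its other 5. Of the other 5 only the base nondependent array, at 6.50, was of the injured lung. Without those 3 arrays the mean of 4 sites was -0.23, and the base dependent difference was -1.09. The dog-centred r of IL4R was -0.57 with the GAPDH ratio and -0.35 with the ACTB ratio. With both RNA integrity covariates the base dependent difference was -0.85.

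CP, a plasma ferroxidase of the acute phase that is made mainly by the liver, ranged from 4.77 to 7.67 in the injured and from 5.53 to 7.61 in the control lung. The difference was -0.01 ± 0.22 (log2, SE; 95% interval -0.47 to 0.46, limma adjusted p = 0.997). By site it ran from 0.79 ± 0.45 at the apex nondependent to -0.56 ± 0.45 at the base nondependent site, the latter from dog 3 alone, whose difference there was -1.96 against 0.17 and 0.11. Although 9 of 12 matched pieces were higher in the injured lung, the dogs' means were -0.22, 0.36 and -0.17.

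Groups of 3 arrays that did not overlap between the lungs were counted at each site. There was 1 of 18 at the apex dependent site (8.67% of all tested probe sets), 3 at the apex nondependent site (6.27%), 2 at the base dependent site (8.32%) and 3 at the base nondependent site (11.5%). Among the brightest probe sets these were OSMR at the apex nondependent, IL4R at the base dependent and CEBPB at the base nondependent site.

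**Figure D4:**
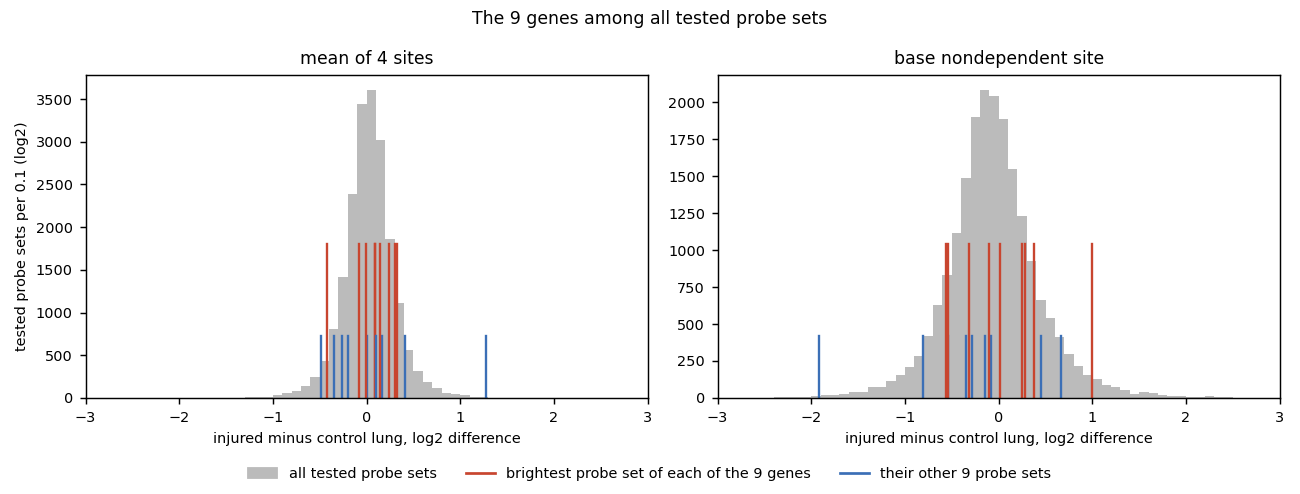
Injured minus control log2 difference (x axis) of all 20034 tested probe sets (grey, number per 0.1), with the brightest probe set of each of the 9 genes (red) and their other 9 probe sets (blue), for the mean of 4 sites and the base nondependent site. CEBPB at 1.00 is the highest red line at the base nondependent site, and the blue line at -1.92 is IL6ST 212196_at, which was not called Present on any injured array there.

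The position of a piece within a lung was compared in the same way. In the injured lung, dependent minus nondependent differences of the 9 genes on their brightest probe sets were within 0.42 of 0. The highest was IL4R (0.42 ± 0.30, log2, SE; limma adjusted p = 0.921). The other probe sets ran from -0.62 (IL6ST 212195_at) to 0.52 (SOCS3 206359_at), and IL6ST 204864_s_at was at -0.53 ± 0.24 (limma adjusted p = 0.918). In the control lung the highest on the brightest probe sets was SOCS3 (0.55 ± 0.36, limma adjusted p = 0.990). There the other probe sets ran from -0.95 (IL6ST 212195_at) to 1.02 (SOCS3 206359_at). Between base and apex of the control lung, STAT3 was 0.67 ± 0.39 higher at the base on 208991_at and 0.77 ± 0.33 on 208992_s_at (limma adjusted p of 0.949 and 0.945). In the injured lung OSMR was 0.34 ± 0.23 and IL4R 0.50 ± 0.30 lower at the base than at the apex (limma adjusted p of 0.707 and 0.665). The IL4R difference between lungs was lower at the base than at the apex by 0.89 ± 0.43 (95% interval -1.78 to 0.01, limma adjusted p = 0.607).

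The genes whose levels most resembled each member, over the 24 arrays with each dog's mean subtracted, were named by Pearson's r among the tested probe sets of other genes, 17253 of them for STAT3. STAT3 was most like SH3BGRL3 (0.86), ARPC4 (0.82) and CYC1 (0.80), and CEBPB most like PELP1 (0.82), SLC22A2 (0.82) and PSMC4 (0.81). SOCS3 was nearest to NFASC (0.84), NFIC (0.82) and NCKAP1L (0.81), and IL6ST to ZNF207 (0.81), PSME3 (0.79) and PI15 (0.76). OSMR was nearest to ZSCAN5A (0.84), WNK1 (0.83) and AP3S1 (0.80), and IL4R to RANGAP1 (0.83), FHL3 (0.79) and SORBS3 (0.79). The closest to CEBPD was MCF2 (0.78), to IL6R MPPE1 (0.74) and to CP SLC12A8 (0.75). None of the 9 genes was among the 3 nearest of another, and their lowest r with each other was -0.40, between IL4R and CP. These r values come from arrays that share animals and overall quality and are the highest of many.

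The rest of the pathway was read from 6 lists, 72 of whose 80 genes were tested, and 0 of them passed the test for the mean of 4 sites or at the base nondependent site. Of the 72, 45 were above 0 for the mean of 4 sites and 36 at the base nondependent site. Over all tested probe sets the median differences were 0.03 and -0.08, so an even split is not the baseline for counts above 0. An unadjusted p under 0.05 was found for 10 and 8 of the 72, next to 9.7 and 8.41% of all tested probe sets. The ligands had 5 of 8 above 0 with a median of 0.06, led by LIF (0.37) and CNTF (0.18), and IL6 itself was at -0.04 ± 0.12 (log2, SE). Of the other receptors and Janus kinases 7 of 11 were above 0 with a median of 0.08, and the smallest p values belonged to the interleukin-10 receptor chains IL10RA (0.46, limma adjusted p = 0.371) and IL10RB (0.42).

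Other STAT factors and inhibitors of the pathway had 10 of 17 above 0 with a median of 0.03. PTPN2, a phosphatase that switches off Janus kinases and STATs, was at 0.36 ± 0.12 (log2, SE; limma adjusted p = 0.282), and CISH, a relative of SOCS3, at 0.28. All 5 genes listed as other C/EBP factors were above 0, with a median of 0.29, led by CEBPZ (0.52, limma adjusted p = 0.390) and CEBPG (0.61). CEBPZ shares the name but is not of the protein family of C/EBPβ and C/EBPδ.

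Of the known STAT3 and C/EBP targets 10 of 14 were above 0 with a median of 0.12. TIMP1, an inhibitor of matrix metalloproteinases, was at 0.55 ± 0.16 (log2, SE; limma adjusted p = 0.221), and at 1.35 ± 0.32 at the base nondependent site (limma adjusted p = 0.0728). HIF1A, the oxygen-regulated transcription factor, was at 0.45 for the mean of 4 sites (limma adjusted p = 0.332).

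Acute phase plasma proteins, which the liver makes in the main, had 8 of 17 above 0 for the mean of 4 sites, with a median of -0.02. C4BPA, an inhibitor of complement, was at -0.35 (limma adjusted p = 0.330), and HAMP, the iron hormone hepcidin, at -0.41 (limma adjusted p = 0.390). At the base nondependent site 4 of the 17 were above 0 and the median was -0.26, where the median of all tested probe sets was -0.08.

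**Figure D5:**
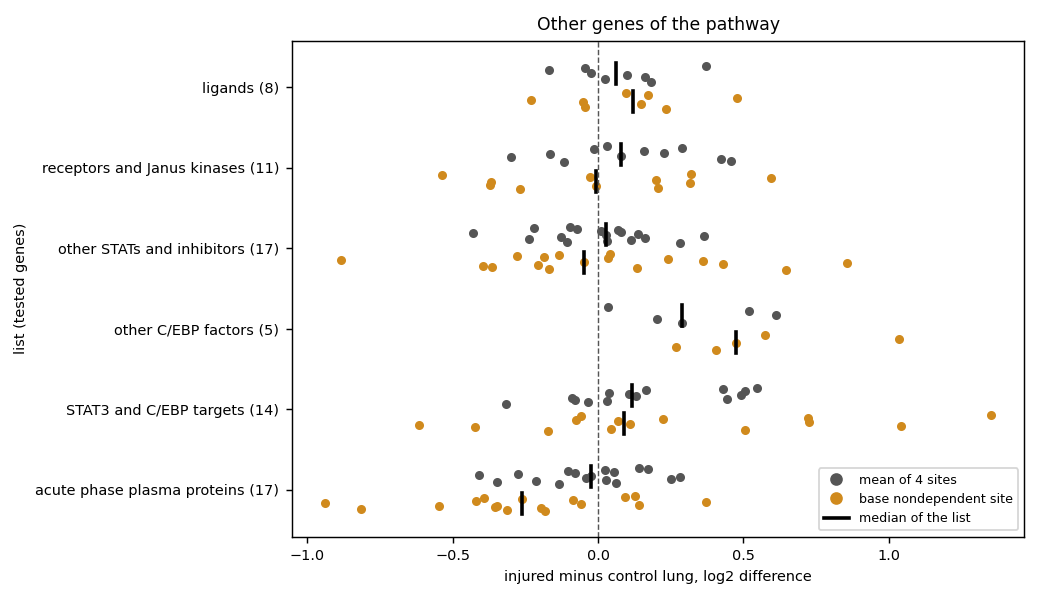
Injured minus control log2 difference (x axis) of each tested gene in the 6 pathway lists (rows, with the number tested), for the mean of 4 sites (grey) and the base nondependent site (orange), with the median of each list as a bar. The rightmost orange point among the targets is TIMP1 at 1.35, and the medians for the mean of 4 sites lie between -0.02 and 0.29.

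Markers of the cell types that the pieces could hold were summed per array, and 0 marker genes of 11 lists were called between the lungs. The summed log2 level of 5 alveolar type 2 markers ran from 10.74 to 12.13 in the injured and from 11.66 to 12.45 in the control lung, and SFTPC, which encodes surfactant protein C, had the smallest p (-0.55 ± 0.16, log2, SE; limma adjusted p = 0.220). MARCO, a scavenger receptor of macrophages, came next at -0.52 ± 0.18 (limma adjusted p = 0.309). In the macrophage and monocyte list as a whole, 4 of 6 were above 0, with a median of 0.13. Of the 5 alveolar type 1 markers 2 were above 0 and 3 had an unadjusted p under 0.05, with a median of -0.27, and their sum ran from 10.68 to 12.23 in the injured and from 11.61 to 12.63 in the control lung. The 7 tested neutrophil markers summed to between 9.33 and 10.31 in the injured and between 9.35 and 10.27 in the control lung, and the 6 macrophage and monocyte markers to between 9.10 and 9.76 and between 9.11 and 9.67. At the base nondependent site, where the CEBPB groups did not overlap, the type 2 sum was 11.01 to 11.67 in the injured and 11.66 to 12.20 in the control lung, and the neutrophil sum 9.33 to 10.25 and 9.57 to 9.89. Their part in the CEBPB values was not tested.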

How the data were processed

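The arrays measured total RNA of 24 pieces of dog lung. For each probe set the authors deposited a linear signal intensity, a call (Present or not) and the p-value behind the call. Deposited intensities had a 2% trimmed mean of 149.94 or 149.95 on each array, so they had been scaled; which software did so is not given in the sources used here. Detection p-values, as deposited, concern 1 array at a time and entered only through the calls. Per the file headers the dogs carry other names than in the titles. Groups were taken from the titles.

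Of 22283 probe sets, 68 controls and 11 without calls were left out, and 20034 called Present on at least 6 of 24 arrays were tested. The deposited signals were rescaled to one trimmed mean before log2 was taken, with 0.1 in place of the 3 signals of 0. Symbols are those of the platform annotation (17255 probe sets with 1 symbol, 930 with several, 1849 with none). limma 3.58.1 in R 4.3.3 fitted 8 groups with the dog as a block, moderated by empirical Bayes with a trend on intensity, for 11 comparisons, and p-values were adjusted over all tested probe sets (Benjamini-Hochberg, threshold 0.05). The dog is a block because its 8 pieces come from 1 animal per the titles. Arrays of a dog deviated from their group means together (median r = 0.236). The median r of -0.136 between dogs is no separate support, since deviations from a mean of 3 dogs sum to 0. The model takes the pieces as separate units although whole lungs were lavaged. An exact test over 3 dogs cannot reach 0.05. The number of arrays limits the precision, with a median SE of 0.18 (log2) over 4 sites and of 0.36 at a single site.

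The brightest tested probe set stands for a gene. Values on every array are given for the 3 genes with the smallest p for the mean of 4 sites, the 2 smallest p name genes of a list, and the 3 highest r name genes of like pattern, of which 1 is printed for CEBPD, IL6R and CP. IL6 was named in addition, with its value known. The members and lists were chosen with earlier results of these data known. Alternatives were quantile normalization, other detection filters, an offset of 16, no dog block, leaving out each dog, per-dog values, RNA integrity covariates, leaving out the 3 arrays that stood apart, a random block for the lung, no intensity trend and the other probe sets of a gene.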

Additional observations from a re-analysis of the deposited data

How the results depend on the processing

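In each of the 11 comparisons and under each of 13 alternatives, 143 counts in all, 0 of the 18 probe sets were called, including the fit with no replicate block (0) and those that left out 1 dog (0 to 0). The direction of the mean of 4 sites turned for 5 genes. With another probe set it was -0.26 (206359_at) and -0.35 (214105_at) for SOCS3, -0.001 (213006_at) for CEBPD, -0.20 (204864_s_at) and -0.49 (212196_at) for IL6ST and 1.28 (217489_s_at) for IL6R. Leaving out 1 dog gave -0.022 (without dog 2) to 0.221 for CEBPD, -0.346 to 0.05 for IL6R (0.04 and 0.05 without dogs 1 and 2) and -0.193 to 0.10 for CP (0.10 and 0.07 without dogs 1 and 3), and CP was 0.004 with an offset of 16. CEBPB, OSMR, STAT3 and SOCS3 on their brightest probe sets stayed above 0 and IL4R below 0 in these fits: 0.17 to 0.42, 0.20 to 0.32, 0.03 to 0.61, 0.07 to 0.16 and -0.62 to -0.23. CEBPB at the base nondependent site ran from 0.49 to 1.43 (limma adjusted p from 0.0723 to 1). The causes were not tested. Calls over all probe sets moved by more than 1.5 times. For the mean of 4 sites, 42 became 6 with no dog block, 3, 0 and 26 without dogs 1, 2 and 3, 0 on per-dog values, 91 with the random block and 19 with no trend. At the base nondependent site, 81 became 42 after quantile normalization, 0 with no dog block, 4, 0 and 134 without dogs 1, 2 and 3, 0 on per-dog values, 9 with RNA integrity covariates, 151 without the arrays that stood apart and 38 with no trend. For base against apex in the injured lung, 7 became 14 with the offset, 102 without dog 3, 59 without the arrays that stood apart, 5 with the random block or no detection filter, 7 with the stricter filter and 0 in the other 7 alternatives. For the difference of the injury effect between base and apex, 0 became 32 without dog 3 and 24 without those arrays, and at the base dependent and apex dependent sites 0 became at most 3. Quantile normalization shifted the median of all probe sets by less than 0.1. Signal over background limits the dim probe sets: IL6R 217489_s_at was called Present on 9 of 24 arrays and SOCS3 206359_at on 6.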
